A study of Homo sapiens with 8 samples.

Results

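The Frizzled family comprises 10 receptor genes, FZD1 to FZD10, and was followed here in human embryonic stem cells of the established line H9 as they differentiated toward blood. Members were taken as all probe sets annotated to exactly 1 Frizzled gene symbol, which gave 18 of 54675 probe sets and 9 of the 10 genes. The 3 probe sets of FZD8 also carry the symbol of a microRNA gene, so FZD8 was not analysed here. Of the 18 probe sets 16, and of the 9 genes all 9, passed a filter on dim signals, namely a value exceeding the median of its array on 2 or more of the 8 arrays.

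The series holds 8 expression arrays, 2 for each of 4 groups. 3 groups were cells positive for both KDR and CD31, sorted by FACS at day 4, day 6 and day 8 of differentiation in StemPro34 serum-free medium with BMP-4, and they were set against undifferentiated, unsorted H9 culture at day 0. KDR is a receptor through which VEGF drives vessel growth, and CD31, the product of PECAM1, joins endothelial cells to each other. All groups come from the same line, which was maintained on mouse fibroblast feeders, and the labels name no engineered allele. The sorted groups differ from day 0 in time, in sorting and in the differentiation culture with BMP-4, and these cannot be told apart. The day 0 culture was not sorted, and a part of feeder cells in its RNA was not tested. The titles call the 2 arrays of each group biological replicates, without saying what was separate (cultures, differentiations or sorts), so p-values measure only the spread between these arrays. A level is given as log2(intensity + 32), written log2 intensity, and a change as a difference of group means of it with the SE of a limma fit over all 8 arrays; a gene is said to have risen or fallen where its adjusted p was under 0.05. In RNA of bulk cells, fewer cells of a type and less RNA per cell cannot be told apart.

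Frizzled proteins span the membrane repeatedly and bind WNT ligands through a cysteine-rich domain outside the cell. With the coreceptors LRP5 and LRP6 they recruit dishevelled and stabilise beta-catenin, and with ROR or planar cell polarity partners they act on the cytoskeleton without it. By sequence the family falls into the subfamilies FZD1, FZD2 and FZD7; FZD5 and FZD8; FZD3 and FZD6; FZD9 and FZD10; and FZD4, which besides WNTs binds norrin and is required for growth of retinal vessels. WNT signalling is used both to maintain embryonic stem cells and to form the mesoderm from which endothelium and blood arise.

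The reference promoters of FZD4 and FZD5 are shown because, of the members with a promoter in the RefSeq table, FZD4 rose and FZD5 fell in the results that follow. Each run gives the 250 bases before the annotated start, read 5′ to 3′ on the gene's strand (minus for both), in GRCh38.p14, at chr11:86955396-86955645 for FZD4 and at chr2:207769907-207770156 for FZD5. Capitals mark matches, on either strand, of the GC box GGGCGG and of the CCAAT box.
FZD4: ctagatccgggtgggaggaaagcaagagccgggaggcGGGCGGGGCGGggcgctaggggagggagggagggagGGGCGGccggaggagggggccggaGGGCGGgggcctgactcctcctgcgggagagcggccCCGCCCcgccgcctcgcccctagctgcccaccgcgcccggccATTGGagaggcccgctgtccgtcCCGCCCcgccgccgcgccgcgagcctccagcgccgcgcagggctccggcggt
FZD5: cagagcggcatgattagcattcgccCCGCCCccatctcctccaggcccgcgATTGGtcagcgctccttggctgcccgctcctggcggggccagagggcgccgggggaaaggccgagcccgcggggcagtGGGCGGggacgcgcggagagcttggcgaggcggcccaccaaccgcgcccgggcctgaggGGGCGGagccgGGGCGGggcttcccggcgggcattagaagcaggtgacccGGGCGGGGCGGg

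Both windows are rich in G and C, at 80.8% for FZD4 and 76.8% for FZD5 against a median of 58% over 35116 promoters, and hold 33 and 30 CpG dinucleotides against a median of 11. Each holds 6 GC boxes, some of which overlap a neighbouring GC box, and 1 CCAAT box, which overlaps none of them. Over all promoters 42.6% hold a GC box and 32% a CCAAT box in a window of the same length. The letters TATAAA (in 10.7% of promoters), the TCF/LEF core CTTTGA (11.2%) and the ETS core CCGGAA (14.5%), each searched on both strands, are not in either window.

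Of the 9 genes, FZD5, FZD7, FZD3 and FZD2 fell and FZD10 and FZD4 rose at day 4 against day 0. These 6 of 9 stand against a background of 18.4% of all 13647 genes tested, with 8.52% higher and 9.91% lower. At day 6 and at day 8 the same 2 genes had risen and FZD5, FZD7 and FZD3 had fallen, 5 of 9 at each time. The background was 23.4% of all genes tested at day 6, with 9.73% higher and 13.6% lower, and 24.5% at day 8, with 10.4% higher and 14.1% lower. The arrays of the 2 groups did not overlap for 6 of 9 members at day 4, 6 at day 6 and 9 at day 8, against 66.1%, 65.7% and 77.8% of all genes tested. The median change over the 9 genes was -0.22 at day 4, -0.67 at day 6 and -0.13 at day 8, against 0.02, -0.03 and -0.03 over all genes tested. The 3 comparisons share the 2 day 0 arrays. Leaving out either day 0 array reduced the count to 1 at day 4, with FZD5 alone past the threshold, and to 1 or 2 at day 6 and at day 8.

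Some facts of the whole series bear on these values. The array medians lay between 88.7 and 93.2 intensity units. Across genes, which are not independent replicates, the day 0 arrays had a Pearson's r of 0.997 with each other, and the pairs of sorted arrays had 0.953 (day 4), 0.937 (day 6) and 0.98 (day 8). On the second principal component the first replicates of day 4 and day 6 lay far from the rest of the sorted arrays. All 10 endothelial markers rose at day 4, day 6 and day 8. They include KDR and PECAM1, whose proteins the cells were sorted on, so a rise of these genes follows from the sort. The mean log2 intensity of the list was between 11.66 and 12.30 on the sorted arrays and between 6.89 and 6.93 at day 0. All 8 measured markers of undifferentiated cells fell, with a list mean between 8.11 and 8.59 on the sorted arrays and between 12.07 and 12.08 at day 0. For GAPDH, a control of RNA integrity, the ratio of signals at the 3' and 5' ends of the transcript did not overlap between sorted and day 0 arrays, with a range from 2.15 to 3.73 on the sorted arrays and values of 1.71 and 1.91 at day 0. The same ratio for ACTB was 19.0 and 9.18 on the day 4 arrays, 31.0 and 16.0 on those of day 6, and 9.91 and 15.1 on those of day 8, against 8.92 and 10.4 at day 0. Day 4 and day 8 overlapped day 0 in it and day 6 did not. It was highest on the first replicates of day 4 and day 6, and the part of these ratios in the results was not tested.

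**Figure D1:**
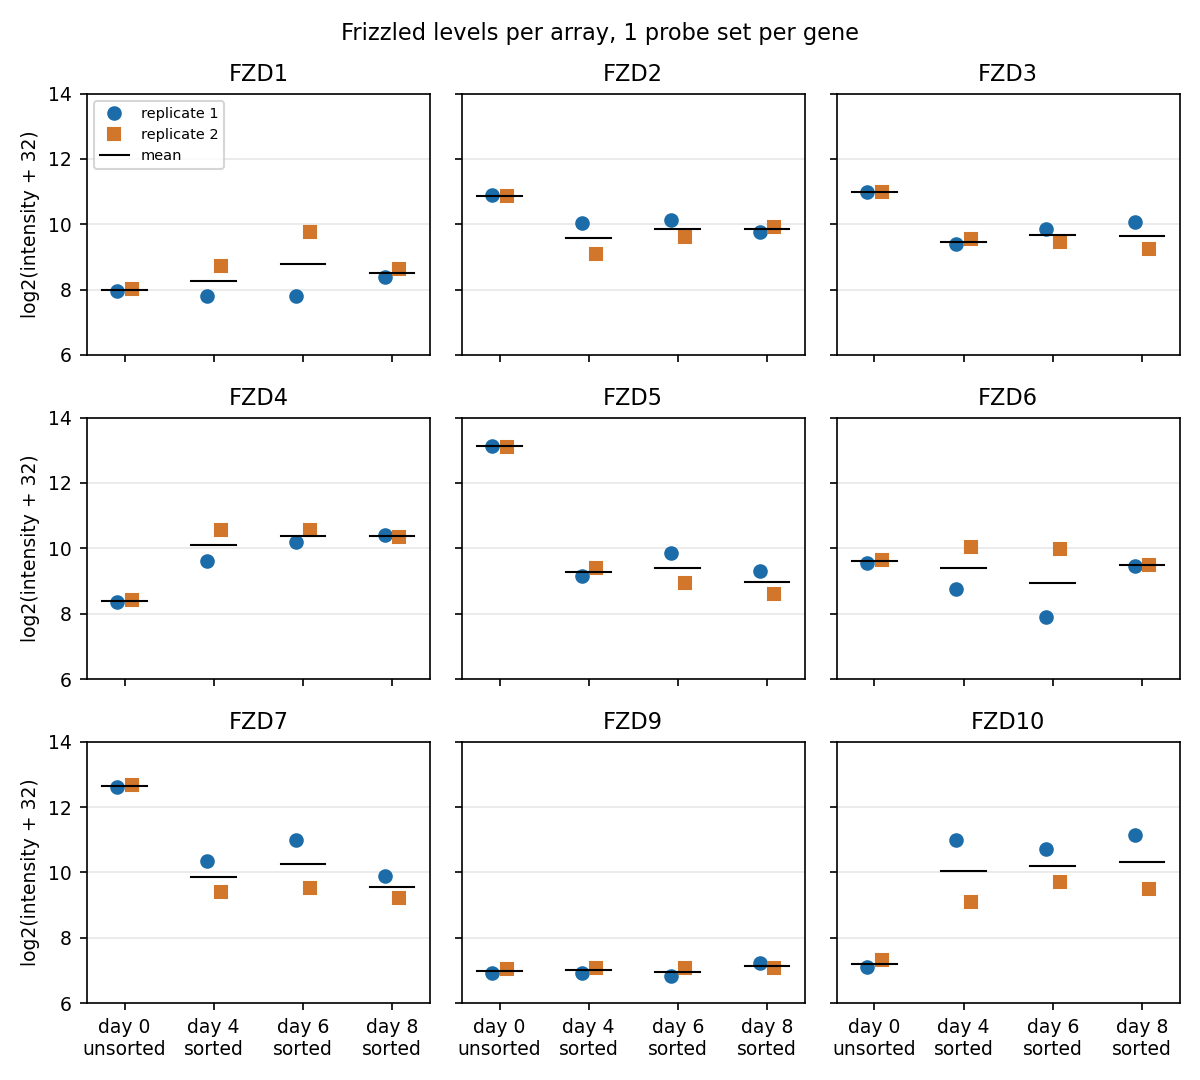
Level of each measured Frizzled gene (y axis, log2(intensity + 32)) on each array, by day of differentiation (x axis); circles are replicate 1, squares replicate 2 and bars the mean of the 2. FZD5 has means between 8.96 and 9.40 in the sorted groups and of 13.12 at day 0, FZD4 and FZD10 are higher on all 6 sorted arrays than at day 0, and FZD1, FZD6, FZD7 and FZD10 differ between the 2 arrays of at least 1 sorted group by more than 1 log2 unit. Levels are to be compared between arrays within a gene, not between genes.

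FZD5 fell most among the members. It is a receptor used in the beta-catenin pathway. The FZD5 level, in log2 intensity, was 9.14 and 9.40 on the day 4 arrays, 9.85 and 8.95 at day 6, and 9.31 and 8.61 at day 8, against 13.14 and 13.10 at day 0. No sorted array came within 3 log2 units of the day 0 arrays, and the sorted groups overlapped among themselves. In untransformed units these are 359 to 888 on the sorted arrays and 9019 and 8740 at day 0. The change from day 0 was -3.85 ± 0.35 (SE) at day 4, -3.72 ± 0.35 at day 6 and -4.16 ± 0.35 at day 8, or 14.4-fold, 13.2-fold and 17.9-fold lower. The limma adjusted p was 0.000521, 0.000567 and 0.000347, and it stayed under the threshold in all 3 comparisons under all 20 alternative settings, between 0.000187 and 0.00845.

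The second probe set of FZD5 gave the same direction and a smaller size. It lay above the array median on 4 of 8 arrays only, at 8.05 and 7.93 at day 0, and changed by -1.18 ± 0.15 at day 4, -1.01 ± 0.15 at day 6 and -1.15 ± 0.15 at day 8 (adjusted p 0.00279, 0.00468 and 0.00283 over the 24898 probe sets tested). Over the 8 arrays the 2 probe sets had a Pearson's r of 0.992. With the mean of both probe sets the change of FZD5 was -2.52, -2.37 and -2.65.

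FZD7 is a receptor known for its high level in human embryonic stem cells, where it serves the beta-catenin pathway. FZD7 had a log2 intensity of 10.34 and 9.40 on the day 4 arrays, 11.00 and 9.53 on those of day 6, and 9.89 and 9.21 on those of day 8, against 12.62 and 12.68 at day 0. All 6 sorted arrays were lower than day 0, with replicate 1 the higher array at each sorted time. FZD7 fell, with changes of -2.78 ± 0.53 (SE) at day 4, -2.38 ± 0.53 at day 6 and -3.10 ± 0.53 at day 8, with adjusted p 0.0123, 0.0196 and 0.00693 by limma. The call was lost without either day 0 array and without replicate 2 of the sorted group compared, the adjusted p then reaching 0.0849, 0.113 and 0.0571.

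The other probe set of FZD7 showed the same fall with less spread. It changed by -3.31 ± 0.41 at day 4, -2.85 ± 0.41 at day 6 and -3.43 ± 0.41 at day 8, with adjusted p 0.00253, 0.00425 and 0.00196 over all probe sets tested. FZD2, the second member of that subfamily to fall and a receptor of WNT5A, went the same way by a smaller amount. For FZD2 the log2 intensity was 10.05 and 9.09 on the day 4 arrays, 10.13 and 9.60 on those of day 6, and 9.77 and 9.92 on those of day 8, against 10.88 and 10.87 at day 0.

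No sorted array reached the day 0 level of FZD2. The change was -1.31 ± 0.34 at day 4 (adjusted p = 0.0379), -1.01 ± 0.34 at day 6 (adjusted p = 0.0731) and -1.03 ± 0.34 at day 8 (adjusted p = 0.0655), so that only day 4 passed. The dimmer probe set of FZD2 passed at each time, with changes of -0.63 ± 0.16, -0.66 ± 0.16 and -0.64 ± 0.16 and adjusted p 0.0438, 0.0312 and 0.0344 over all probe sets. Without the first replicates of both day 4 and day 6, which leaves 1 array at each of these times, the changes were -1.79, -1.28 and -1.03. At day 4 the call of FZD2 was lost in 6 of 20 alternatives, 5 of which left out 1 array.

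FZD1, the remaining member of the subfamily, did not pass. FZD1 had a log2 intensity of 7.81 and 8.72 on the day 4 arrays, 7.79 and 9.77 on those of day 6, and 8.39 and 8.64 on those of day 8, against 7.95 and 8.00 at day 0. Replicate 1 of day 4 and of day 6 lay slightly below both day 0 arrays, and replicate 2 of these groups and both day 8 arrays lay above it. The change was 0.29 ± 0.61 (SE), 0.80 ± 0.61 and 0.54 ± 0.61, with adjusted p 0.794, 0.4 and 0.563. With the first replicates of day 4 and day 6 left out it was 0.74, 1.80 and 0.54. That fit leaves 1 array at day 4 and 1 at day 6. Its spread comes from day 0 and day 8 alone, so its adjusted p is not given. The size of the change of FZD1 at day 4 and day 6 thus depended on which array was used. The other 2 probe sets of FZD1 lay below the median on all 8 arrays, with a log2 intensity between 5.44 and 6.02.

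FZD3 works in planar cell polarity and in axon guidance. On its brightest probe set the log2 intensity was 9.38 and 9.54 on the day 4 arrays, 9.85 and 9.46 on those of day 6, and 10.06 and 9.24 on those of day 8, against 10.99 on each of the day 0 arrays. All sorted arrays were lower than day 0. FZD3 fell, with changes of -1.53 ± 0.29 (SE) at day 4, -1.34 ± 0.29 at day 6 and -1.34 ± 0.29 at day 8, or 2.88-fold, 2.52-fold and 2.53-fold lower, with adjusted p 0.0128, 0.0187 and 0.0182. Each call was lost without either day 0 array and without 1 array of the sorted group, with an adjusted p of up to 0.119.

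FZD3 has 4 probe sets, more than any other member, and all 4 were lower on all 6 sorted arrays than at day 0. Changes at day 4 ranged from -0.84 to -1.60, and 3 of the 4 passed at day 4, 3 at day 6 and 2 at day 8 over all probe sets tested, against 15.8%, 20.1% and 21% of all probe sets. The probe set that never passed changed by -0.84 ± 0.32, -0.83 ± 0.32 and -0.98 ± 0.32 (adjusted p 0.133, 0.119 and 0.0742).

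FZD6, its closest relative, which in mice orients hair follicles together with Fzd3, had 1 probe set. Its log2 intensity was 8.74 and 10.03 on the day 4 arrays, 7.90 and 9.98 on those of day 6, and 9.46 and 9.49 on those of day 8, against 9.57 and 9.66 at day 0. The 2 arrays of day 4 lay on either side of the day 0 arrays, as did those of day 6. The change was -0.22 ± 0.68 (SE), -0.67 ± 0.68 and -0.13 ± 0.68, with adjusted p 0.861, 0.536 and 0.913, and no alternative gave a call. With the first replicates of day 4 and day 6 left out, the changes at these times were 0.42 and 0.37, of the other sign, each from 1 sorted array.

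FZD4, the norrin receptor, rose. On its brighter probe set the log2 intensity was 9.62 and 10.57 on the day 4 arrays, 10.18 and 10.56 on those of day 6, and 10.40 and 10.35 on those of day 8, against 8.36 and 8.42 at day 0. Every sorted array was more than 1 log2 unit above day 0. The change was 1.71 ± 0.32 (SE) at day 4, 1.99 ± 0.32 at day 6 and 1.99 ± 0.32 at day 8, or 3.27-fold, 3.96-fold and 3.96-fold higher, with adjusted p 0.0113, 0.00542 and 0.00532 by limma. The call at day 4 was lost without either day 0 array (adjusted p up to 0.0897), and those at day 6 and day 8 without replicate 1 of day 0 (0.0512 and 0.0506).

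The dimmer probe set of FZD4, at 6.71 and 6.62 at day 0, did not pass. It differed by 0.21 ± 0.17, 0.35 ± 0.17 and 0.43 ± 0.17 (adjusted p 0.481, 0.203 and 0.116), in the same direction as the brighter probe set, with a Pearson's r of 0.831 to it over the 8 arrays.

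FZD10 had the largest rise among the members. It is a receptor of the beta-catenin pathway, described in the primitive streak and neural tube of vertebrate embryos. FZD10 had a log2 intensity of 10.98 and 9.09 on the day 4 arrays, 10.72 and 9.70 on those of day 6, and 11.13 and 9.48 on those of day 8, against 7.10 and 7.32 at day 0. Both arrays of each sorted group were well above day 0, and in each sorted group the 2 arrays were at least 1 log2 unit apart, with the first replicate the higher. In untransformed units replicate 1 read 1992, 1652 and 2214 and replicate 2 read 512, 798 and 684, against 106 and 127 at day 0.

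FZD10 was higher than at day 0 by 2.83 ± 0.75 (SE) at day 4, 2.997 ± 0.75 at day 6 and 3.10 ± 0.75 at day 8, or 7.09-fold, 7.99-fold and 8.57-fold, with adjusted p 0.0424, 0.0298 and 0.0256. Its calls were lost without either day 0 array and without replicate 1 of the sorted group compared, with an adjusted p of up to 0.204. At day 4 the call was also lost with a larger offset before the log and with only the arrays compared, 6 of 20 alternatives in all. With the first replicates of day 4 and day 6 left out, the change at day 4 was 1.88 and at day 6 it was 2.49, each from 1 sorted array. Its only probe set is the one used, so no second measurement on these arrays was at hand.

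FZD9, which in mice is needed for normal B cell development, stayed near the array median. Its log2 intensity was 6.94 and 7.07 on the day 4 arrays, 6.83 and 7.07 on those of day 6, and 7.21 and 7.06 on those of day 8, against 6.94 and 7.04 at day 0. No change passed, at 0.02 ± 0.12 (SE), -0.04 ± 0.12 and 0.15 ± 0.12 with adjusted p 0.943, 0.865 and 0.413.

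**Figure D2:**
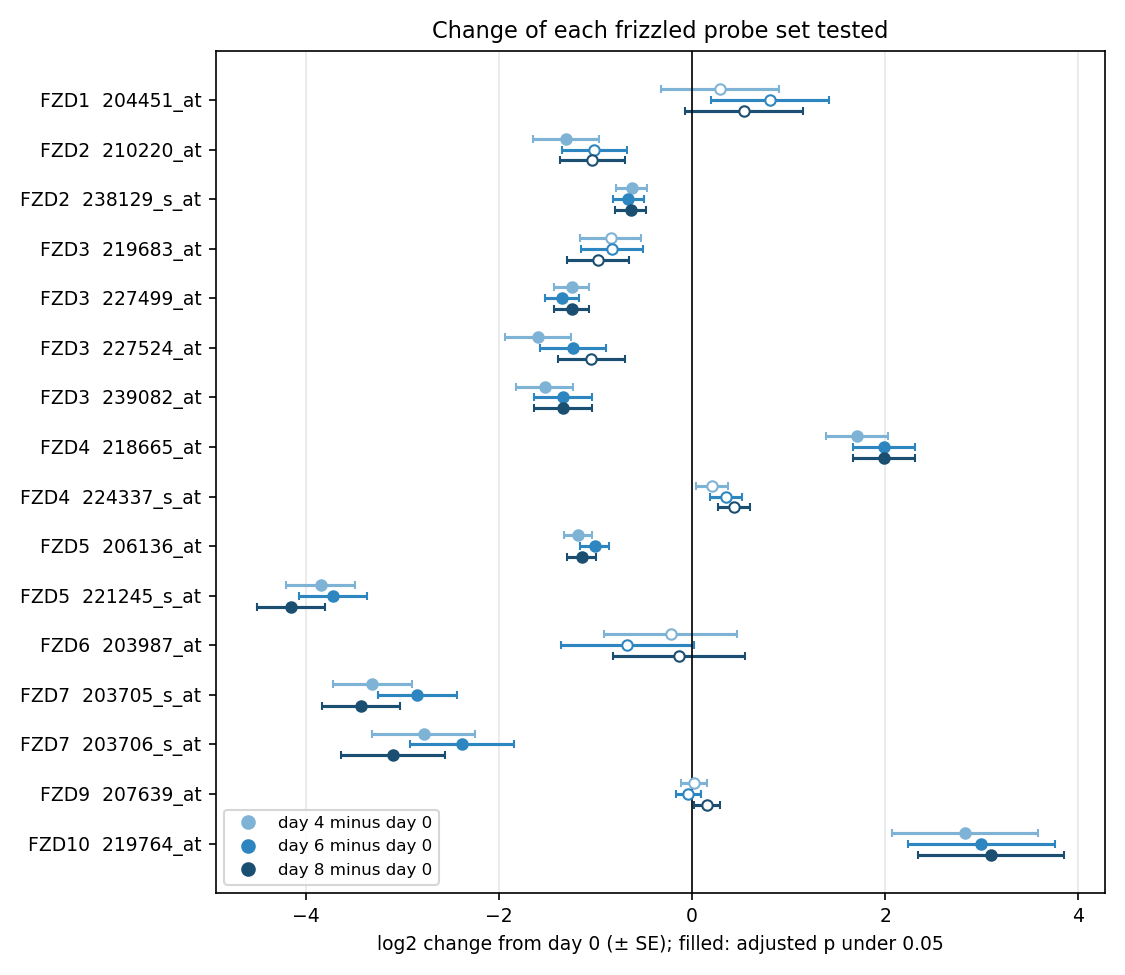
Change from day 0 (x axis, log2 scale, ± SE) of each of the 16 Frizzled probe sets tested (y axis), at day 4, day 6 and day 8; filled points passed an adjusted p of 0.05 over all probe sets tested. Both probe sets of FZD5, FZD7 and FZD2 and all 4 of FZD3 lie below 0, both of FZD4 lie above 0 with only the brighter one filled, and the point of FZD10 lies near 3 at each time.

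Within subfamilies some members passed and others did not, and the differences between members were not tested. FZD2 (at day 4) and FZD7 fell while FZD1 did not pass, FZD3 fell while FZD6 did not pass, and FZD10 rose while FZD9 did not pass.

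The steps within the sorted gate compared cells that bore KDR and CD31 at 1 day with cells that bore them at another. The same cells were not followed. No Frizzled gene passed from day 4 to day 6, from day 6 to day 8 or from day 4 to day 8, and none had an unadjusted p under 0.05 in these comparisons. Over all genes tested 0% passed in each by limma, with 722, 338 and 887 genes at an unadjusted p under 0.05. The 2 groups compared overlapped for all 9 members in each step, whereas 24.4%, 25.5% and 38% of all genes did not overlap. The 9 changes lay between -0.45 and 0.51 for day 6 minus day 4, between -0.72 and 0.54 for day 8 minus day 6, and between -0.32 and 0.28 for day 8 minus day 4. The lowest adjusted p among them was 0.999, 0.955 and 0.763. For the 9 genes the order of the 3 sorted times was therefore not resolved, and where neighbours in level differed beyond their spread, 1 of them was day 0.

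FZD1 and FZD6 on the one hand and FZD10 on the other split the 2 arrays of day 4 and of day 6 in opposite ways, and markers of other cell types split there too. The list of yolk sac and hepatic endoderm markers had a mean log2 intensity of 7.81 and 9.54 on the day 4 arrays, 6.82 and 8.35 on those of day 6, and 9.03 and 8.74 on those of day 8, against 7.11 and 7.12 at day 0. It was higher on replicate 2 at day 4 and day 6, as FZD1 and FZD6 were. None of its 7 tested genes passed in limma at day 4 or day 6 (4 and 0 had an unadjusted p under 0.05), and 1 rose at day 8. The share of all genes tested that passed was 18.4% at day 4 and 23.4% at day 6, and 10.4% rose at day 8. Of its 10 genes 7 were above the array median on each day 4 array, 5 and 7 on the day 6 arrays, and 8 and 7 on the day 8 arrays, against 5 on each at day 0.

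The fibroblast and smooth muscle list had a mean of 9.93 and 8.80 on the day 4 arrays, 9.83 and 8.71 on those of day 6, and 9.04 and 8.94 on those of day 8, against 10.74 and 10.75 at day 0. Replicate 1 was the higher array at each sorted time, as it was for FZD10 and for the brighter probe set of FZD7. The other probe set of FZD7 was higher on replicate 2 at day 4, with 8.63 on replicate 1 and 8.94 on replicate 2, and higher on replicate 1 at day 6 and day 8. All 10 of its genes were above the array median on replicate 1 of day 4 and of day 6 and at day 0, and 7 to 9 on the other sorted arrays, and 6 of the 10 fell at each sorted time. The mean of the neural ectoderm list was likewise higher on replicate 1 of each sorted group. It read 7.06 and 6.43 for day 4, 7.02 and 6.73 for day 6, 8.03 and 6.62 for day 8. The day 0 arrays read 9.12 and 9.10. Of the 6 genes in this list 3, 3 and 2 fell. Not every gene split like the mean. On the day 6 arrays OTX2 had the widest split (8.58 and 7.02), with DCX, ZIC1 and, slightly, STMN2 in the same direction. PAX6 (6.86 and 7.03) and SOX1 (6.71 and 6.88) were higher on replicate 2. PAX6 was so among the day 4 arrays too. OTX2 was brightest in the undifferentiated culture (12.77 and 12.67). The part of such cells in the levels of the receptors was not tested.

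The cardiac list had a mean between 6.86 and 7.37 on the sorted arrays, against 7.03 and 7.05 at day 0. Of its 5 tested genes 1, NKX2-5, rose at day 4, by 0.45 ± 0.12 (SE; limma adjusted p = 0.0415), and none passed at day 6 or day 8. Rises made up 8.52% of all genes tested at day 4 and 10.4% at day 8. The blood list was at 6.99 and 7.07 on the day 4 arrays, 6.91 and 8.04 on those of day 6, and 8.47 and 8.23 on those of day 8, against 6.83 and 6.70 at day 0, and 4 of its 5 tested genes rose at day 8, while PTPRC, the defining leukocyte marker, lay below the median on all 8 arrays.

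**Figure D3:**
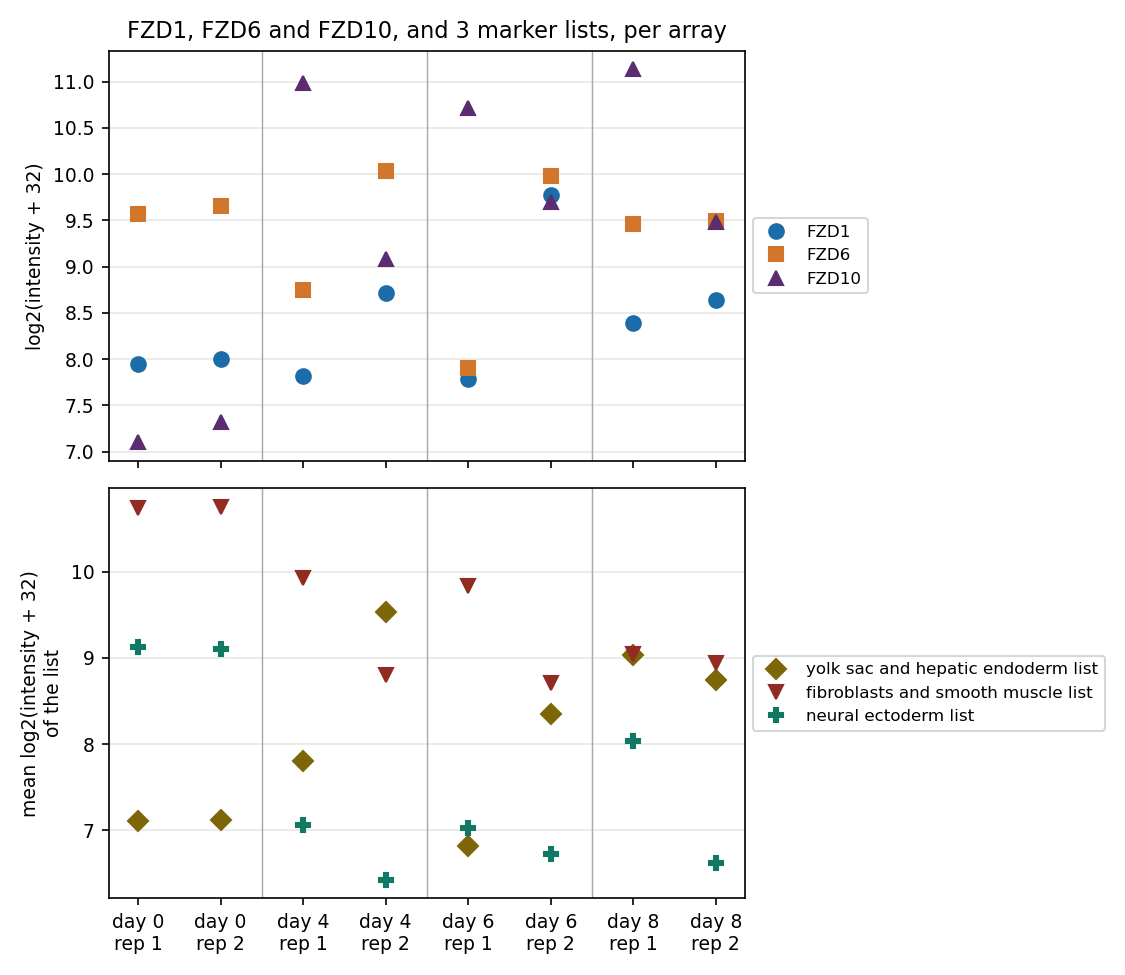
Top, level (y axis, log2(intensity + 32)) of FZD1, FZD6 and FZD10 on each of the 8 arrays (x axis); bottom, mean level of 3 marker lists on the same arrays. At day 4 and day 6 FZD1, FZD6 and the endoderm list are higher on replicate 2, whereas FZD10 and the fibroblast and neural lists are higher on replicate 1; levels are to be compared between arrays within a gene or list.

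Among the ligands few were above the median. Of 20 genes listed for WNT ligands and norrin, 18 had a probe set with 1 symbol and 6 were tested. At day 4 1 rose and none fell, and at day 6 and day 8 1 rose and 1 fell. The share of all genes tested that passed was 18.4%, 23.4% and 24.5% at these times. At day 8 none passed without any 1 of the 4 arrays compared, and at day 6 1 passed in 6 alternatives, 5 of which left out 1 array. NDP, the gene of norrin, lay below the array median, with group means between 5.60 and 5.71.

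WNT11, a ligand that acts mostly without beta-catenin, rose. Its log2 intensity was 8.66 and 8.69 on the day 4 arrays, 8.36 and 8.22 on those of day 6, and 7.62 and 7.69 on those of day 8, against 6.98 and 7.12 at day 0. Both day 4 arrays were the highest, and all sorted arrays exceeded day 0, with changes from day 0 of 1.63 ± 0.13 (SE), 1.24 ± 0.13 and 0.60 ± 0.13 (adjusted p 0.000319, 0.00095 and 0.0181). The steps between sorted times did not pass. WNT5A, a ligand of FZD2 and ROR receptors, changed by -1.26 ± 0.47 at day 4 (adjusted p = 0.117) and fell at day 6 and day 8, with changes of -1.83 ± 0.47 and -1.64 ± 0.47 (adjusted p 0.0317 and 0.0445).

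Of 9 coreceptors and other WNT receptors tested, 1 rose and 1 fell at each sorted time, near the share of all genes tested (18.4%, 23.4% and 24.5%). At day 4 1 of them passed without either day 0 array or without replicate 1 of day 4, and 4 passed without either day 6 array or with only the arrays compared. With the mean of all probe sets 1 passed at day 4 and at day 6, and with only the arrays compared 5 passed at day 8. In that day 8 fit 6784 of all 13647 genes tested passed. The fit without the first replicates of day 4 and day 6, which left 1 array at each of these times, also gave more calls. ROR1, a tyrosine kinase receptor of WNT5A, fell, with changes of -2.55 ± 0.45, -2.84 ± 0.45 and -3.24 ± 0.45 (SE) and adjusted p 0.00932, 0.00525 and 0.00307. RECK, which with ADGRA2 presents WNT7 ligands to FZD4 in brain endothelium, rose by 2.08 ± 0.25, 2.17 ± 0.25 and 2.29 ± 0.25 (adjusted p 0.00168, 0.00121 and 0.000972). The rise of RECK held for its brightest probe set, and with the mean of all its probe sets the changes were 0.47, 0.53 and 0.18 and none passed (adjusted p 0.311, 0.233 and 0.687).

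The partners of FZD4 did not pass otherwise. TSPAN12, the tetraspanin that assists norrin signalling through FZD4, differed by 1.43 ± 0.45, 1.42 ± 0.45 and 0.96 ± 0.45 (adjusted p 0.0746, 0.0651 and 0.168). ADGRA2 differed by 1.32 ± 0.45, 0.70 ± 0.45 and 1.44 ± 0.45 (adjusted p 0.0911, 0.321 and 0.0583). LRP6, the coreceptor of the beta-catenin pathway, differed by 0.12 ± 0.26, -0.04 ± 0.26 and -0.01 ± 0.26 (adjusted p 0.794, 0.926 and 0.977).

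Proteins that remove Frizzled receptors from the membrane, and the R-spondins and LGR receptors that counter this, gave 1 fall among 7 genes tested at day 4, 3 at day 6 and 1 at day 8, and no rise. Over all genes tested 9.91%, 13.6% and 14.1% fell at these times. Without either day 0 array 0 passed at any of these times, as at day 4 without its replicate 1 and at day 8 without its replicate 2, and at day 6 1 passed without its replicate 2. At day 8 2 passed without either day 6 array. The fit without the first replicates of day 4 and day 6, which left 1 array at each of these times, gave more calls. ZNRF3, a ubiquitin ligase that sends Frizzled receptors to degradation, fell, with changes of -1.33 ± 0.28, -1.496 ± 0.28 and -1.14 ± 0.28 (SE) and adjusted p 0.019, 0.0104 and 0.0274. At day 6 LGR4, an R-spondin receptor, fell by 1.16 ± 0.27 (adjusted p = 0.024) and RSPO3, an R-spondin, was 2.30-fold lower (adjusted p = 0.0363).

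Downstream of the receptors, none of 9 dishevelled and destruction complex genes passed in limma at any time against day 0 (1, 0 and 0 had an unadjusted p under 0.05). Their median change was 0.08, 0.08 and 0.07. Among all genes tested 18.4%, 23.4% and 24.5% passed at day 4, day 6 and day 8. Some of the dishevelled and destruction complex genes passed in the fit without the first replicates of day 4 and day 6. That fit left 1 array at each of these times. WLS, the only tested gene of WNT release, did not pass, although with the mean of its probe sets it passed at each time. In the planar cell polarity list of 9 genes, 2 rose and 4 fell at day 4. At day 6 1 rose and 4 fell, and at day 8 1 rose and 3 fell. Over all genes tested 8.52%, 9.73% and 10.4% rose and 9.91%, 13.6% and 14.1% fell at day 4, day 6 and day 8. The cadherins CELSR1 and CELSR2, which bridge neighbouring cells in planar polarity, changed by -1.74 ± 0.28 and -1.73 ± 0.15 at day 4 (adjusted p 0.00622 and 0.000413), and PRICKLE2 fell by 1.60 ± 0.18 (adjusted p = 0.00145), and all 3 also fell at day 6 and day 8. Without replicate 1 of day 0 the list had 2 calls at each time, as it had at day 8 without replicate 2 of day 8. Without replicate 2 of day 0 it had 3 at day 4 and at day 6, as it had at day 4 without replicate 1 of day 4. At day 8 all 9 passed with only the arrays compared, a fit in which 6784 of all 13647 genes tested passed. The fit without the first replicates of day 4 and day 6, which left 1 array at each of these times, also gave more calls there.

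Of 4 secreted Frizzled-related proteins tested, which hold a cysteine-rich domain like that of the receptors and bind WNTs, 2 fell and none rose at each time. Falls made up 9.91%, 13.6% and 14.1% of all genes tested at day 4, day 6 and day 8. SFRP1 fell, with changes of -1.66 ± 0.21, -1.90 ± 0.21 and -2.04 ± 0.21 (SE; adjusted p 0.00209, 0.000998 and 0.000741). SFRP2 fell, with changes of -4.94 ± 0.99, -3.72 ± 0.99 and -3.99 ± 0.99 (adjusted p 0.0152, 0.0371 and 0.0279), with calls that ended without either day 0 array. Of 10 target genes of the beta-catenin pathway tested, 1 rose and 3 fell at each time. The share of all genes tested that passed either way was 18.4%, 23.4% and 24.5%. Without either day 0 array 0 passed at day 4 and 1 in each of the later comparisons. LEF1 rose by 1.67 ± 0.38 at day 4 and 1.88 ± 0.38 at day 8 (adjusted p 0.0239 and 0.0131). The LEF1 level was higher at day 6 too, with a mean log2 intensity of 9.82 against 8.32 at day 0. AXIN2 fell by 1.76 ± 0.44 at day 6 (adjusted p = 0.0294). The AXIN2 level was also lower at day 4 and day 8, with means of 8.84 and 8.87 against 10.55 at day 0. The antagonist DKK1 fell, with changes of -1.15 ± 0.21, -1.64 ± 0.21 and -1.44 ± 0.21 (adjusted p 0.0101, 0.00203 and 0.00353). ZNRF3, described above, is also in this list and is among its falls at each time.

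**Figure D4:**
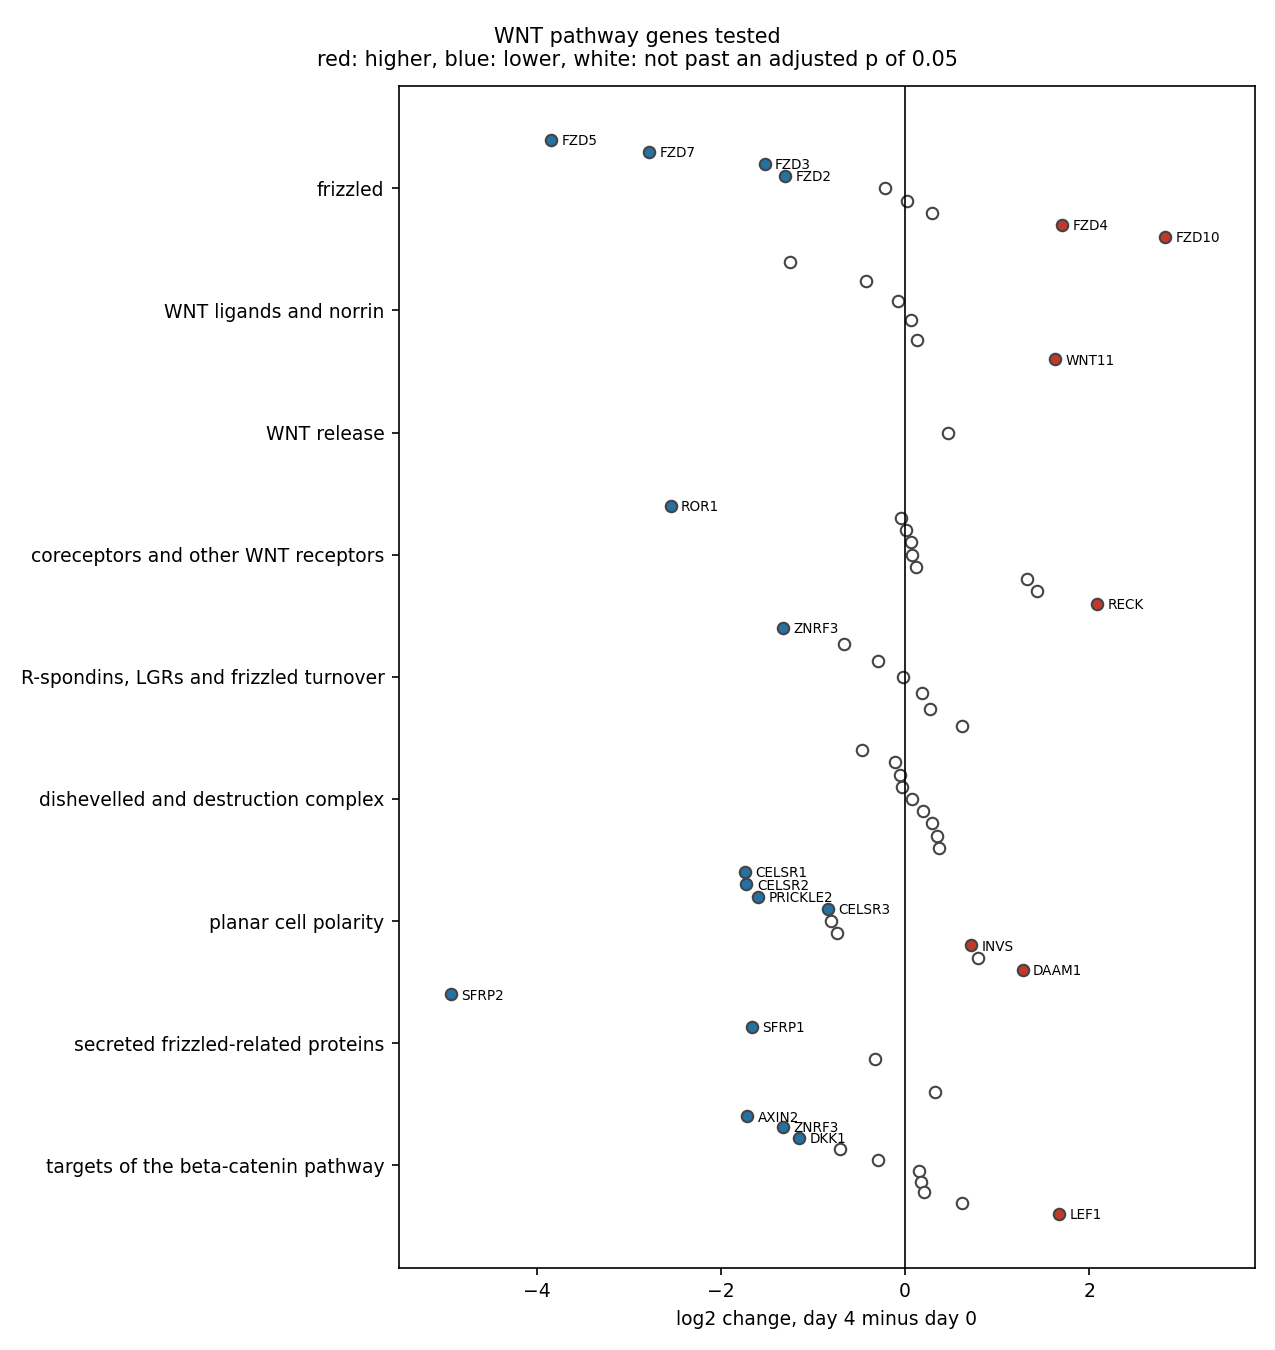
Change from day 0 to day 4 (x axis, log2 scale) of every tested gene of 9 WNT pathway lists (y axis); red genes rose, blue genes fell and white genes did not pass an adjusted p of 0.05. In the Frizzled list 6 of 9 genes are coloured, and in the list of dishevelled and the destruction complex none is.

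For each Frizzled gene that passed in any comparison, the genes with the most similar pattern were sought among 13646 others. As the highest of so many coefficients over only 8 arrays, all of which share the gap between day 0 and the sorted groups, they are high by selection. FZD5 was closest to NRXN3, TERF1 and ZNF121 (Pearson's r 0.998, 0.996 and 0.995), and FZD7 to ALDH1L2, PPM1B and TAGLN (0.999, 0.998 and 0.997), the last a smooth muscle gene. FZD3 was closest to UBE2QL1, TAF4 and TIMP2 (0.994, 0.993 and 0.989), and FZD2 to EEF1A1, OR7E37P and SEPHS1 (0.993, 0.986 and 0.985). FZD4 was closest to FNBP1, ADAMTS9 and ITPRIPL2 (0.996, 0.996 and 0.994), and FZD10 to MOAP1, TTC7B and AMPD3 (0.986, 0.980 and 0.979).

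Over the 6 sorted arrays alone, where that gap plays no part, other genes came first for most members. These coefficients, the highest of 13646 over fewer arrays, are high by selection too. The first replicates of day 4 and day 6 lay apart from the other sorted arrays, and their part in these coefficients was not tested. FZD7 was closest to CEBPZ, ALDH1L2 and PPM1B (0.999, 0.999 and 0.998), and so kept 2 of its 3 closest genes. FZD4 was closest to DYNC1LI2, RAPGEF2 and PLXNA1 (0.999, 0.994 and 0.993), FZD5 to HYCC2, TRIM71 and CWC27 (0.997, 0.991 and 0.990), FZD10 to DDX21, ACSF3 and SLC1A5 (0.989, 0.988 and 0.986), FZD2 to VPS52, MYBBP1A and BRD9 (0.992, 0.992 and 0.992), and FZD3 to SLC12A2, SARM1 and GNAQ (0.982, 0.974 and 0.969).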

How the data were processed

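Each probe set has, on each array, 1 linear intensity deposited by the authors. MAS5 is named per the submitters' processing notes; its version, scaling and detection calls, and a genome build, are not given in the sources used here. Groups and replicate numbers came from the sample titles; the title was also followed for 3 later arrays whose source name says day 4.

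Values were used as log2(intensity + 32) with no added scaling, so folds understate the change of dim genes. Of 54675 probe sets 41091 had 1 gene symbol in the platform annotation, 1801 had several, 11721 none, and 62 were controls; 41037 gene IDs were found in a RefSeq gene table. Each gene was represented by its probe set of highest mean log2 value, _x_at only where no other existed, and a second fit took every probe set. Groups were compared with limma 3.58.1 (R 4.3.3), 1 fit over the 8 arrays with a term per group, eBayes with trend (4 residual and 2.84 prior degrees of freedom) and two-sided Benjamini-Hochberg adjustment over 13647 genes or 24898 probe sets, called at 0.05. Tested on simulated data for day 4 against day 0 over 13647 genes, the fit called 42.4%, 77.4% and 93.1% of genes given log2 changes of 1, 2 and 3, with 5 false calls. For day 8 against day 4 it called 37.1%, 72.6% and 93.8%, with 14 false calls. The simulated arrays varied independently and few genes were changed, unlike in the data.

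Members and lists were chosen with earlier results of these data known. Named genes were all members, up to 3 genes per pathway list and comparison with the smallest p whose arrays did not overlap, and the 3 genes most like each member that passed; TSPAN12, ADGRA2, LRP6, WLS, NDP, PTPRC and the day 4 value of WNT5A were named after their values were seen. Python 3.11.15 and matplotlib 3.10.9 drew the figures.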

Additional observations from a re-analysis of the deposited data

Results flagged for a closer look

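Data outside the Frizzled probe sets held a signal for FZD10-AS1, a transcript annotated next to FZD10 on the opposite strand and no member of the family. Both of its probe sets were singled out because all 6 sorted arrays exceeded the 2 day 0 arrays and the array median. Of all genes tested 66.1%, 65.7% and 77.8% did not overlap with day 0 at day 4, day 6 and day 8. The lowest sorted log2 intensity was 7.42 on 1 probe set and 7.49 on the other, against day 0 values of 7.17 and 7.16 and of 7.19 and 7.06. Neither probe set passed in limma, with adjusted p between 0.0758 and 0.251.

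RSPO3 was singled out because both day 4 arrays lay above, and all day 6 and day 8 arrays below, the day 0 arrays. The margin at day 4 was slight, with 8.42 and 8.90 against 8.38 and 8.40 at day 0. The change at day 4 was 0.27 and did not pass in limma (adjusted p = 0.618). Day 4 exceeded day 6 by 1.47 on the log2 scale, and that step did not pass in limma (adjusted p = 0.843).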

How the results depend on the processing

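The Frizzled genes called numbered 6, 5 and 5 at day 4, day 6 and day 8 against day 0, and 0 in each step between sorted times. With 1 array left out in turn these counts ranged from 1 to 6 in each comparison with day 0 and were 0 in each step; the lowest came without a day 0 array. The fit without the first replicates of both day 4 and day 6 left 1 array at each of these times. Its spread came from day 0 and day 8 alone, so its changes are given without its adjusted p or the number of its calls. Where it is said to have given calls or more calls, these rest on that spread too. The remaining alternatives were a smaller and a larger offset, no filter and a stricter filter, quantile normalization, centring on the array median, all probe sets averaged or tested singly, an untrended eBayes, and a fit to only the arrays compared. None of these moved a Frizzled count by over 1.5 times. With the replicate number as a block they were 6, 6 and 6 and 0 in each step, and FZD2 also passed at day 6 and day 8. It moved 2 lists at day 8 by over 1.5 times, planar cell polarity to 7 calls, against 4, and receptor turnover to 2, against 1. Deviations of replicate 1 from its group mean had an r of 0.6 between day 4 and day 6, 0.41 between day 6 and day 8 and 0.19 between day 4 and day 8, but -0.02, 0.02 and 0.02 between day 0 and the sorted groups. The numbers were therefore not taken to pair sorted with day 0 arrays, and the correlation among sorted arrays is a hint from the data, not the design. All genes called, 2516, 3187 and 3345 against day 0, were 3943, 5011 and 5217 over all probe sets. With 1 array left out their number was lowest without a day 0 array. Without the first replicates of day 4 and day 6 it was higher than with all arrays. With only the arrays of day 8 and day 0 they were 6784. Between sorted times the 0 calls became a few in some fits without 1 array or without the first replicates of day 4 and day 6. The cause was not tested. Few arrays and, for FZD9 and the dimmer probe sets, a signal near the median limit these results.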
